A study of Mus musculus with 2 samples.

Results

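The 10 receptor and bridging genes of photoreceptor outer-segment uptake were followed in retinal pigment epithelium (RPE) of the mouse, in 2 primary cultures of which 1 was left untreated and 1 was exposed to interferon gamma (IFNg). The genes were Mertk, Axl, Tyro3, Gas6, Pros1, Itgav, Itgb5, Mfge8, Cd36 and Cd81. They were taken by gene symbol, and every probe set whose annotation names 1 of them alone was included, which gave 22 probe sets of 45037 on the array. No probe set named a member together with another gene. The transcript of the bridging ligand Pros1 was 3.15-fold higher on the IFNg array, that of the receptor Tyro3 was 2.04-fold lower by its brighter probe set, and that of the other bridging ligand, Gas6, was 1.75-fold lower. The remaining 7 genes lay within 1.5-fold by their brightest probe sets.

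The cells were primary cultures of pigmented retinal epithelium grown for 14 days in DMEM with 20% fetal bovine serum. IFNg, a cytokine of T cells and NK cells, was added at 100 U/ml for 24 h to the treated culture, and both cultures were moved to serum-free medium overnight before RNA was taken. The labels describe the cells as 95% cytokeratin-positive and do not give the strain, the age or the number of mice, or how the overnight step overlapped with IFNg. The series asks about PD-L1 on IFNg-treated RPE. Each group is 1 culture on 1 array, so no difference has a replicate check or a p-value, and "higher" and "lower" describe these 2 arrays.

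RPE cells bind and engulf the tips of photoreceptor outer segments that are shed each day. In the established view of this pathway, the integrin alpha-v beta-5 holds the shed membrane through the bridge Mfge8, which binds phosphatidylserine, and the receptor tyrosine kinase Mertk drives its internalisation. Mertk, Axl and Tyro3 form the TAM family, and their ligands Gas6 and protein S (Pros1) bridge them to phosphatidylserine. Cd36 is a scavenger receptor with a part in internalisation, and Cd81 is a tetraspanin that acts with the integrin in particle binding.

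Signals were deposited on a linear scale with a median of 20.1 on the untreated and 20.8 on the IFNg array. A floor was placed at the pooled median, 20.4, and dimmer signals were raised to it, since detection calls were not used here, and a fold against an array at the floor is given as "at least". A gene is represented by its brightest probe set, the one whose log2 signal was highest on average. Between probe sets of the same gene that both arrays measured above the floor, the SD of the log2 ratio was 0.44 (4419 genes). That SD was 0.56 for dim probe sets, with a mean signal under 86.6, 0.37 for those from there to 500 and 0.21 for those of at least 500. This spread holds no variation between cultures, and its part from different transcripts of a gene was not separated from noise. Known IFNg targets were higher on the array labelled IFNg: Irf1 was 10.6-fold, Gbp2 42.8-fold, Cxcl9 285-fold and Cd274, the gene for PD-L1, at least 20.6-fold higher.

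**Figure D1:**
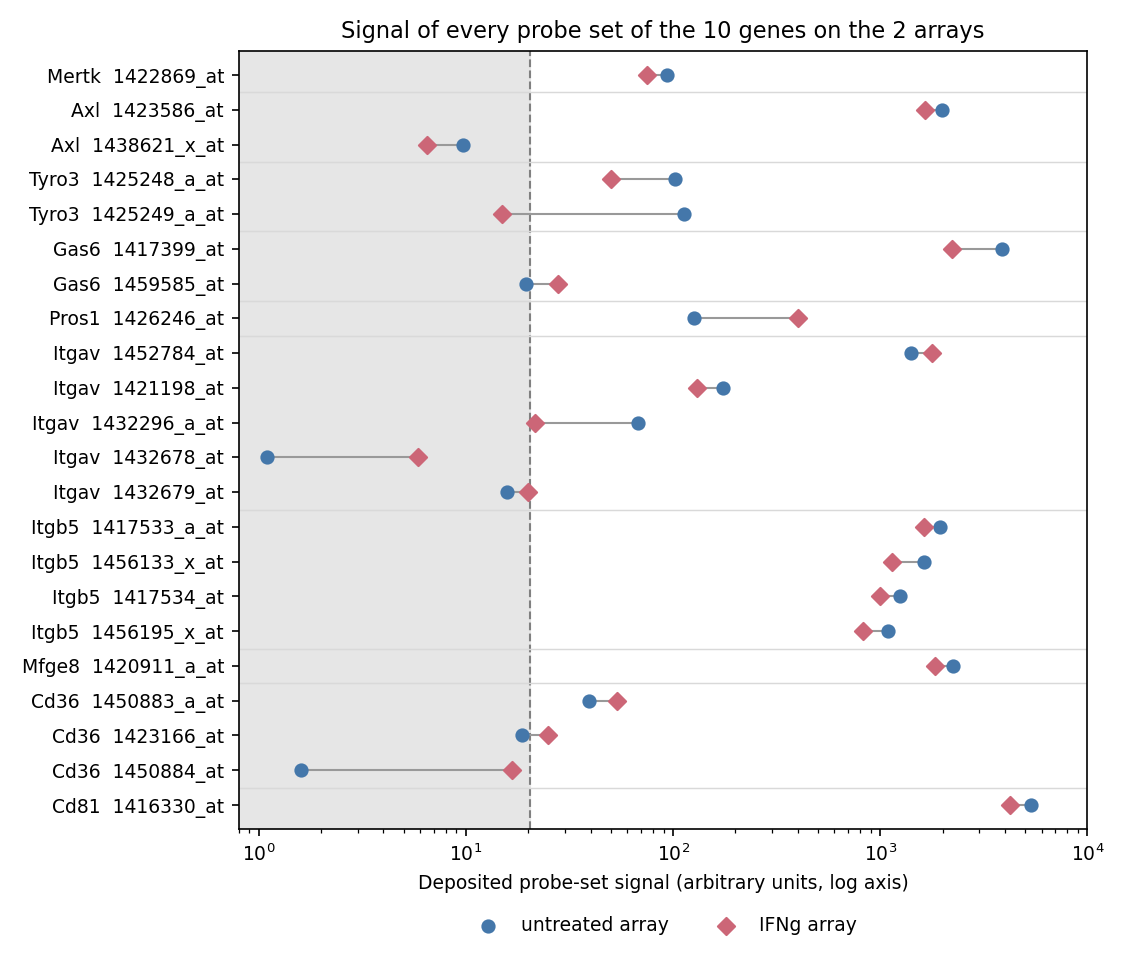
Deposited signal of each of the 22 probe sets of the 10 genes (log axis, arbitrary units), with circles for the untreated and diamonds for the IFNg array; the grey area lies under the floor of 20.4. Pros1 is displaced to the right with IFNg and both Tyro3 probe sets to the left, while the 4 Itgb5 probe sets shift little and the same way.

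Of the 3 TAM receptor genes, Tyro3 differed most between the arrays. Its probe set 1425248_a_at gave 102 on the untreated and 50 on the IFNg array, a log2 ratio of -1.03. The second, 1425249_a_at, gave 112.6 and 14.9, the latter under the floor, so that it was at least 5.52-fold lower with IFNg. Both probe sets thus put Tyro3 lower with IFNg, by sizes that differ more than probe sets of a gene usually did. Of the 12743 genes measured above the floor on at least 1 array, 4.03% had a log2 ratio as low as that of the brighter Tyro3 probe set. Among 3383 genes as dim as Tyro3 and above the floor on both arrays, 6.03% did. The signals are low and the ratio lies just past 2-fold: with 16 added to each signal in place of the floor, it was -0.84. The ending of both IDs marks probe sets that several transcripts of a gene share.

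Mertk, the receptor whose loss blocks outer-segment uptake, was represented by 1 probe set with a signal of 93.7 untreated and 75 with IFNg. Its log2 ratio of -0.32 was smaller than the spread between dim probe sets of a gene. Axl, a TAM receptor also found on macrophages and fibroblasts, gave 1981.6 and 1639.0, a log2 ratio of -0.27. The second Axl probe set was under the floor on both arrays, with 9.7 and 6.5, and carries no ratio. Genes with a mean signal of at least 500 had a median log2 ratio of -0.20 (1875 genes), so the value for Axl lay close to that of bright genes in general.

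The 2 TAM ligand genes differed in opposite directions between the arrays. Pros1, which encodes protein S, a vitamin K-dependent plasma protein that is also a ligand of Mertk and Tyro3, had signals of 126.8 and 399.8 on its single probe set, a log2 ratio of 1.66. Only 284 of the 12743 genes had a higher ratio, and 2.24% had one at least as high. Gas6, the vitamin K-dependent ligand of all TAM receptors, had 3876.0 and 2214.5 on its bright probe set, a log2 ratio of -0.81. Among the 1875 bright genes, 4.11% had a ratio as low as that of Gas6. Its second probe set was near the floor, with 19.6 and 27.7, a log2 ratio of at least 0.44 in the other direction. Averaging both probe sets would bring Gas6 to -0.18, whereas under every scaling tried its bright probe set lay between -0.89 and -0.67. Pros1 has no second probe set, so its value rests on 1 measurement per culture.

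The promoters of the 3 genes with the largest ratios are shown, because GAS elements are known promoter elements of IFNg-responsive genes. In the RefSeq promoter table (GRCm38.p6) each of the 10 genes had 1 window, and the 250 bases before the start site were searched on both strands for TTCNNNGAA, the GAS consensus, and for GAAA, any 2 bases and GAAA, the core of the interferon-stimulated response element (ISRE). The windows below run 5′ to 3′ on the gene's strand, and capitals mark a match to either motif. Pros1 is at chr16:62854057-62854306 on the plus strand, Gas6 at chr8:13494536-13494785 on the minus strand and Tyro3 at chr2:119799264-119799513 on the plus strand. For comparison, 29 bases around the GAS match of Irf1, a known IFNg target, are given (chr11:53769914-53769942, plus strand).
Pros1: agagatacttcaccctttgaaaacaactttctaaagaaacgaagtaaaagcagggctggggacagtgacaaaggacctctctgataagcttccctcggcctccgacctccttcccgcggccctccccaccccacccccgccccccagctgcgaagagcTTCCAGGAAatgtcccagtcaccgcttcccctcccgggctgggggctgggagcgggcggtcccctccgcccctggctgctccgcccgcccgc
Gas6: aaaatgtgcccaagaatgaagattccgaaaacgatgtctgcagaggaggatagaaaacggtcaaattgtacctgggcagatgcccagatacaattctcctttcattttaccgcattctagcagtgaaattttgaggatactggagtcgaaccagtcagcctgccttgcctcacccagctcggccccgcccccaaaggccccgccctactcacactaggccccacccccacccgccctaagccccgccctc
Tyro3: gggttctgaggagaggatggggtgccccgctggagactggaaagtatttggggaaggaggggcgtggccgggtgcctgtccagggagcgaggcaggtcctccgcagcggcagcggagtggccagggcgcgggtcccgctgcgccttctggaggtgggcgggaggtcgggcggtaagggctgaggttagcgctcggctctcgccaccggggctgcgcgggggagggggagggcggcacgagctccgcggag
Irf1: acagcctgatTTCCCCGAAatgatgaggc

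Pros1 held 1 GAS match, TTCCAGGAA, from position -92 to -84 relative to the start site. The other 9 genes held none, and none of the 10 held an ISRE match. GAS matches occurred in 7.02% of all 32851 windows and ISRE matches in 2.98%. Irf1 held the match TTCCCCGAA at -90 to -82 in 1 of its 2 windows, while Gbp2, Cxcl9 and Cd274, all higher with IFNg, held no GAS match, nor did Socs1, which was 5.79-fold higher. Gbp2 held 1 ISRE match and Socs1 held 2. Conversely, the window of Socs3, a gene within 2-fold (log2 ratio -0.23), held 1 GAS match. A match is a description of the letters, and binding was not measured. The members' windows ranged from 43.2% GC for Cd36 to 73.2% for Tyro3, against a median of 52.4% over all windows.

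The integrin that tethers outer segments lay within 2-fold for both chains by their brightest probe sets. Itgb5, the beta-5 chain, was measured by 4 bright probe sets. Their untreated signals ran from 1093.7 to 1945.9 and their IFNg signals from 828.6 to 1623.4. The log2 ratios were -0.26, -0.33, -0.40 and -0.52, with an SD of 0.11, so all 4 were lower with IFNg by 1.20-fold to 1.44-fold. Of the 1875 bright genes, 44.6% had a ratio as low as that of the brightest Itgb5 probe set, so a difference of this size is ordinary for bright genes on these arrays.

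Itgav, the alpha-v chain, gave different answers by probe set. The brightest, 1452784_at, had 1406.6 and 1786.2, a log2 ratio of 0.34. A dimmer one, 1421198_at, had 173.3 and 130.5 (-0.41), and the dimmest measured, 1432296_a_at, had 67.4 and 21.5 (-1.65, or 3.14-fold lower). Neither array measured the last 2 probe sets above the floor, their signals being 1.1 to 19.9. The 3 measured ratios had an SD of 1.01, against 0.44 for genes in general, and their mean was -0.57, opposite in sign to the brightest. Itgav was therefore not assigned a direction.

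Mfge8, the bridge between the integrin and phosphatidylserine, had 2243.4 untreated and 1834.7 with IFNg on its 1 probe set, a log2 ratio of -0.29. Cd81 had 5331.8 and 4246.5, likewise on 1 probe set, a log2 ratio of -0.33. Both ratios lay near the bright-gene median of -0.20. Cd36 was dim. Its chosen probe set had 39.3 and 53.5 (log2 ratio 0.44), a second had 18.7 and 24.8, and the last had 1.6 and 16.6, under the floor on both arrays. Each of the 3 had a greater signal on the IFNg array, but 2 of them were under the floor on the untreated array, and the ratio of the brightest was within the spread of dim probe sets.

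**Figure D2:**
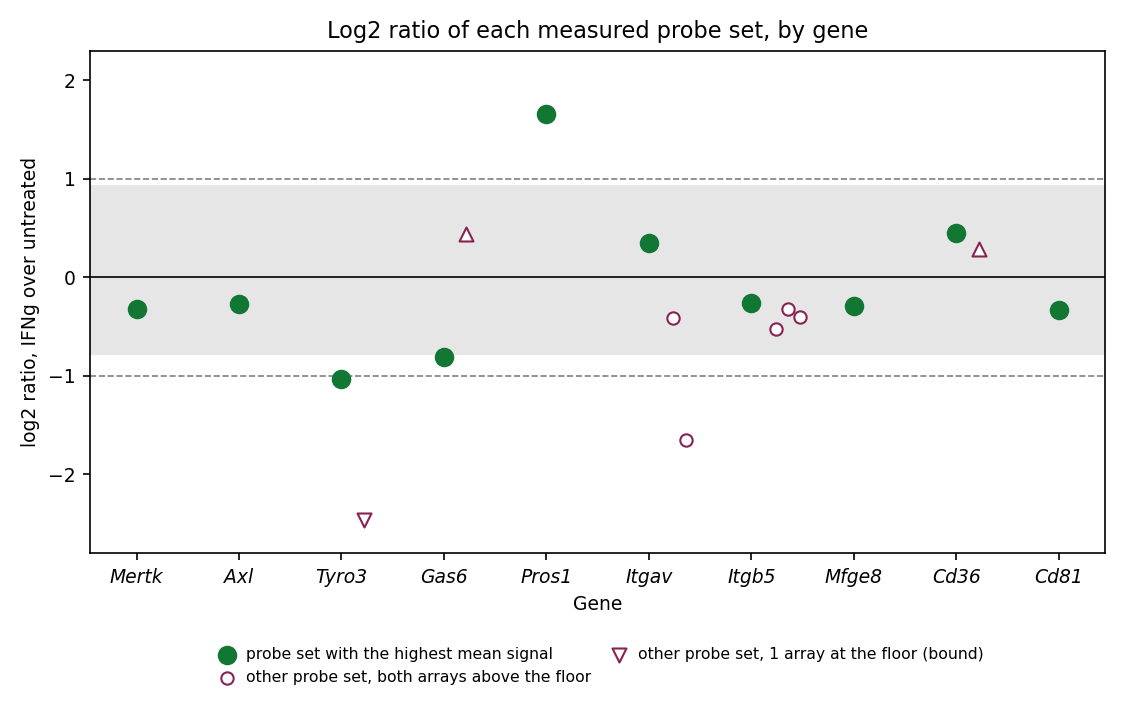
Log2 ratio (IFNg over untreated) of each measured probe set by gene. Filled circles are the brightest probe set, open symbols the others, with triangles for bounds; the grey band holds the 10th to 90th percentile of all genes (-0.78 to 0.93) and dashed lines mark 2-fold. By the filled circles Pros1 lies above and Tyro3 and Gas6 lie below the band, the second Gas6 probe set lies within it at 0.44, and the Itgav probe sets are spread from 0.34 to -1.65.

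By count, 1 of the 10 genes was at least 2-fold higher (Pros1), 1 was at least 2-fold lower (Tyro3) and 8 lay between. Over all genes above the floor, 8.82% were at least 2-fold higher and 4.48% at least 2-fold lower, so the members' counts are near the background. Of the 22 probe sets, 4 had no signal above the floor. Of the other 18, 1 was at least 2-fold higher and 3 were at least 2-fold lower (both of Tyro3 and the dimmest measured one of Itgav), against 9.36% and 4.69% of the 22273 measured probe sets that name 1 gene. The median log2 ratio of the 10 genes was -0.28, against -0.12 over all genes and -0.20 over bright genes. By brightest probe set, the order of the log2 ratios was Pros1, Cd36, Itgav, Itgb5, Axl, Mfge8, Mertk, Cd81, Gas6 and Tyro3. The 5 from Itgb5 to Cd81 lay between -0.26 and -0.33 and cannot be ranked within the spread of probe sets. Nor can Cd36 and Itgav, at 0.44 and 0.34, and the place of Itgav depends on the probe set.

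**Figure D3:**
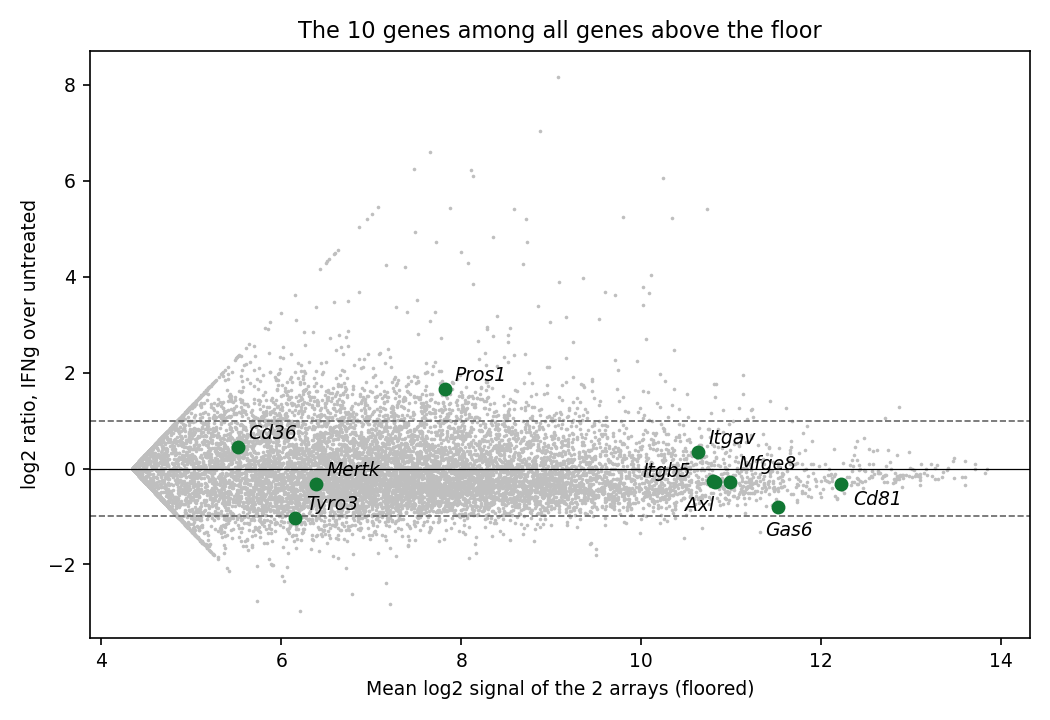
Log2 ratio (IFNg over untreated) against mean log2 signal for the 12743 measured genes (grey) and the 10 phagocytosis genes (green); dashed lines mark 2-fold. Pros1 stands above the 2-fold line in the middle of the signal range, Tyro3 just below the lower line at low signal, and Gas6 at the lower edge of the bright genes.

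Genes around these receptors were examined in 7 lists of 123 genes, of which 115 were measured. At least 2-fold higher were 5 and at least 2-fold lower were 6, with a median log2 ratio of -0.13, against 8.82% and 4.48% of all genes and a median of -0.12. Each list is described by its counts and its named genes, chosen by their size of difference within the list.

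Other receptors and bridges for dying cells had 1 of 22 measured genes at least 2-fold higher and none lower, with a median log2 ratio of -0.17. The 1 was Edil3, a secreted protein related to Mfge8 that also binds integrins and phosphatidylserine. Its signals were 41.4 and 106.6 (2.57-fold higher), but another dim probe set had 49.6 and 35.9 (log2 ratio -0.47). Cd47, the surface signal that inhibits engulfment, had log2 ratios of 0.93, 1.27 and 1.13 on its 3 bright probe sets, the first of them the chosen one. A dim Cd47 probe set went the other way, with 34.8 and 4.1. The complement gene C1qa had signals of 26.2 and 50.8, and the lysosomal membrane receptor Scarb2 had log2 ratios of 0.80 and -0.13 on 2 bright probe sets. Tub, a ligand described for Mertk, had 31.6 and 10.7, the latter under the floor.

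Among 6 measured integrin subunits outside the member list, 1 was at least 2-fold higher, none was lower, and the median log2 ratio was 0.30. Itgb8, a partner of alpha-v that activates latent TGF-beta, had signals of 80.5 and 163.1 (2.03-fold higher) on 1 probe set. Itgb1, the common beta-1 chain and also a partner of alpha-v, had log2 ratios of 0.68, 0.78 and 0.51 on its 3 measured probe sets, whereas those of Itgb5 were all below 0. Itga5 (-0.59) and Itga3 (-0.48), alpha chains that pair with beta-1, and Itgb3 (0.45), another partner of alpha-v, lay within 2-fold by their brightest probe sets. A dimmer probe set of Itga5 had 108.5 and 53.8, a log2 ratio of -1.01 that is past 2-fold. Itgb3 was dim, and a second probe set of it, under the floor with IFNg, gave a bound of -0.57.

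The list of ligand carboxylation and receptor shedding had 1 of 7 genes at least 2-fold higher and 1 lower. Gas6 and protein S need vitamin K-dependent carboxylation, and the carboxylase Ggcx (log2 ratio -0.69, and -0.46 on a dimmer probe set) and the reductase Vkorc1 (-0.49) lay within 2-fold. The related reductase Vkorc1l1 had 111.3 and 39.9 (2.79-fold lower), but 40.7 and 51.7 on a dimmer probe set. Adam17, the protease that sheds Mertk from the cell surface, had 135.6 and 304.1 (2.24-fold higher) on its brightest probe set. The log2 ratio was 0.33 and 0.54 on its 2 other probe sets, higher but within 2-fold. Adam10 (0.71) and Adam9 (0.66), related proteases, lay within 2-fold by their brightest probe sets, and a dimmer one of Adam10 was at -0.30.

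Engulfment signalling and cytoskeleton genes had 1 of 32 at least 2-fold higher and 1 lower, with a median log2 ratio of -0.16. Rock1, a kinase that drives actomyosin contraction, had signals of 96.5 and 452.8 (4.69-fold higher). Further Rock1 probe sets gave log2 ratios of 2.61 and 2.02, and a dim one at least 0.72, so its 4 measured probe sets were all higher with IFNg. Plcg2, a phospholipase of receptor signalling, was 2.25-fold lower on 1 dim probe set, with 61.1 and 27.2. Ezr, the microvillus linker ezrin, had 1494.5 and 753.0, a log2 ratio of -0.99 that falls just short of 2-fold. Elmo1 (-0.95), part of the Rac activator used in engulfment, and the kinase subunit Pik3r1 (0.73) lay within 2-fold. So did the adaptor Crk, at 0.73 on its brightest probe set and at 0.45, -0.18 and a bound of 0.01 on dimmer ones. Ptk2, the focal adhesion kinase that couples the integrin to Mertk, had no probe set that names it alone and is not covered.

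Of 28 measured phagosome maturation and digestion genes, 1 was at least 2-fold higher and 2 were at least 2-fold lower, with a median log2 ratio of -0.12. Lamp2, a lysosomal membrane protein, had 974.2 and 3313.3 (3.40-fold higher), and its 3 other probe sets gave log2 ratios of 1.42, 0.73 and 0.43. Atp6v0a1, a subunit of the proton pump that acidifies phagosomes, had 492.7 and 165.5 (2.98-fold lower). Its 2 next probe sets were at -1.94 and -1.31, and a dim one was also lower. Tfeb, a transcription factor of lysosomal genes, had 81.7 and 29.5 (2.77-fold lower) on 1 probe set. Rab5a (0.94), a GTPase of early phagosomes, and Atp6v1a, another subunit of the pump, lay within 2-fold. Atp6v1a was at 0.65 on its brightest probe set and at 0.14 on the other. Kif5b, a kinesin motor, was at 0.90 on its brightest probe set and at 2.15 and 1.58 on dimmer ones. Mreg, which takes part in phagosome maturation in RPE, was near the floor with 16.6 and 31.3.

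Lipid handling genes had 1 of 11 at least 2-fold lower and none higher, with a median log2 ratio of -0.36. Pparg, a nuclear receptor that responds to lipids, had 79.2 and 27.8 (2.85-fold lower) on 1 probe set. Cpt1a, which admits fatty acids to mitochondria for oxidation, had 940.5 and 487.5, a log2 ratio of -0.95, with -0.97 and -0.95 on its other probe sets. The cholesterol exporter Abcg1 had 75.3 and 37.8 (-0.99), and Abca7 (-0.48) and the lipid-droplet gene Plin2 (-0.38) lay nearer to 0. Of 9 measured tetraspanins and Cd81 partners, 1 was at least 2-fold lower and none higher, with a median log2 ratio of -0.17. That gene, Tspan14, which escorts Adam10 to the surface, had 226.8 and 106.2 (2.14-fold lower). Cd53, a leukocyte tetraspanin, was dim with 31.2 and 59.1, while Cd151 (-0.61), the Cd81 partner Ptgfrn (-0.41) and Tspan3 (-0.33) lay within 2-fold.

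**Figure D4:**
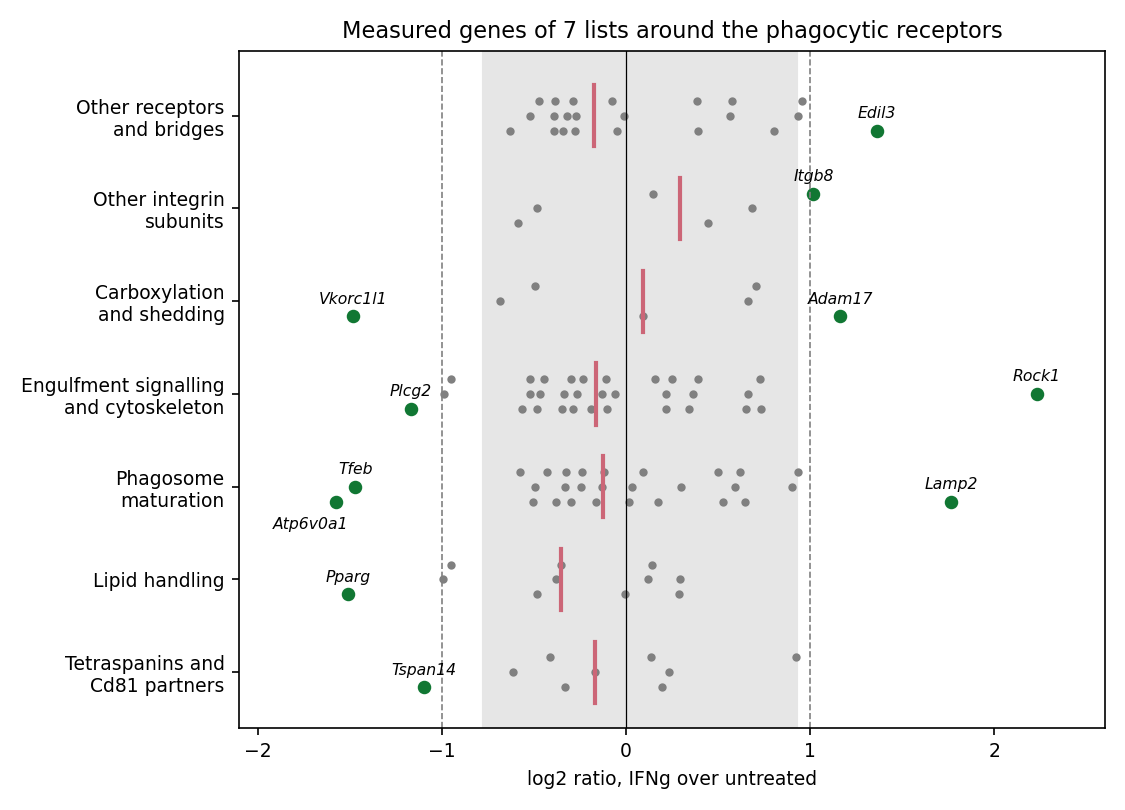
Log2 ratio (IFNg over untreated) of each measured gene in the 7 lists; green points are at least 2-fold from 0, red bars are list medians, the grey band holds the 10th to 90th percentile of all genes and dashed lines mark 2-fold. The medians run from -0.36 to 0.30 and only 11 of the 115 genes lie past 2-fold.

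Markers of the cell types that the cultures could hold were read beside these values. Of the RPE markers, Otx2 had 410.9 and 388.5 and the keratin genes Krt8 and Krt18 were above the floor, while Rpe65, Best1, Rgr and Dct were at the floor on both arrays. Of 13 measured RPE markers, 5 were at least 2-fold lower with IFNg (Rlbp1, Rdh5, Ttr, Tyrp1 and Trpm3) and none was higher. Over all genes, 4.48% were at least 2-fold lower. The median log2 ratio of the RPE list was -0.70. Of the 13, 9 had a ratio below 0, among them Tyr with 986.1 and 605.7 (-0.70). The 4 above 0 were Krt18 (0.81), Mitf (0.59, dim), Lrat (at least 0.13, near the floor) and Krt8 (0.02). Rdh5 had 468.9 and 202.7. Rlbp1 (73.2 and 35.1), Ttr (89.4 and 29.4), Tyrp1 (53.1 and 21.7) and Trpm3 (41.4 and 14.8, the latter under the floor) were dim. Other measured probe sets of the 5 lower genes gave only bounds: -0.55, -0.71 and -1.19 for Ttr, -1.45 and 0.33 for Tyrp1, and -0.07 for Trpm3. The summed signal of the whole RPE list, the 4 genes at the floor included, was 4140.9 untreated and 4355.4 with IFNg. Krt18 alone made up 1390.4 and 2445.9 of these sums. Of 11 measured macrophage markers, 3 were at least 2-fold lower (Csf1r, Fcer1g and Laptm5) and none was higher. Fcer1g (46.0 and 10.6) and Laptm5 (40.9 and 8.7) were under the floor with IFNg. The other measured probe sets of Csf1r (-0.56 and -0.28) and Laptm5 (-0.19 and -0.55) lay within 2-fold. C1qa (0.96), Mrc1 (at least 0.39) and Itgax (at least 0.09), all dim, went the other way. The summed signal of the whole macrophage list, genes at the floor included, was 1288.8 untreated and 861.9 with IFNg. Lyz2 alone, within 2-fold, made up 660.8 and 486.5 of these sums. Ptprc, which defines leukocytes, had 20.8 and 7.0, and Itgam, Aif1 and Cx3cr1 were at the floor on both arrays. The median log2 ratio was -0.44 for the macrophage list, -0.51 for endothelial and pericyte markers and -0.17 for fibroblast genes. For photoreceptor markers, with 2 measured, it was -0.86. The median was thus below 0 for every marker list, as it was over all genes (-0.12). Tyro3 and Gas6 were lower too by their brightest probe sets. The part of cell composition in the values of Tyro3, Gas6 and Pros1 was not tested. In RNA from whole cultures, fewer cells of a type and less RNA per cell cannot be told apart.

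Fibroblast genes were bright on both arrays, with summed signals of 58913.6 and 54787.9 over 10 genes. None of them was past 2-fold by its brightest probe set. A far dimmer probe set of Acta2 had 89.3 and 33.6, a log2 ratio of -1.41, against -0.33 on its brightest. Of 8 measured endothelial and pericyte markers, 1 was at least 2-fold lower (Cspg4) and none higher, with summed signals of 1720.9 and 1786.7 over the list. A dimmer Cspg4 probe set had 69.5 and 56.5, a log2 ratio of -0.30. Rgs5 alone made up 967.0 and 1290.5 of these sums, and its other probe sets gave log2 ratios of -0.88, 0.11 and 0.58. The 7 other measured markers had ratios below 0 by their brightest probe sets. Of 8 photoreceptor markers with a probe set, 6 were at the floor on both arrays, among them Sag, Gnat1, Crx and Prph2, and Rom1 was 2.95-fold lower.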

How the data were processed

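Biotin-labelled cRNA was made from the total RNA of 2 primary RPE cultures and read on 1 oligonucleotide array each, per the labels' protocols. What the authors deposited is a linear intensity per probe set (0.1 to 14896), with a trimmed mean of 100 on both arrays. For the summarisation method, background correction and detection calls, the sources used here give nothing. The arrays were grouped by title. The 64 control probe sets were left out, leaving 45037. Of these, 34945 name 1 gene, 932 several and 9160 none in the platform annotation, with symbols updated to RefSeq through gene IDs.

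The arrays were brought to the same 2% trimmed mean, a floor was set at the pooled median (20.4), and values were converted to log2. Of 18193 genes, 12743 rose above the floor on at least 1 array and are called measured. No test was possible with 1 array a group, and a gene counts as past 2-fold only where its brighter array exceeds the floor. The number of arrays limits the precision. All 10 members were described with all probe sets. In each list, genes past 2-fold and up to 4 further genes with the largest ratios were named, as were IFNg targets and defining markers. The members and lists were chosen with earlier results of these data known. No gene coordinates are given, since no build is named for the signals, and promoter windows carry the RefSeq build. The alternatives were 4 scalings, 3 treatments of dim signals, 2 rules for probe sets and 2 thresholds. The procedure was run on simulated data with the same SD (0.44) at every signal level. That run therefore does not cover the larger spread of dim probe sets. Python 3.11.15, numpy 2.4.6, pandas 2.3.3, statsmodels 0.14.6 and matplotlib 3.10.9 were used.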

Additional observations from a re-analysis of the deposited data

How the results depend on the processing

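Pros1 stayed at least 2-fold higher under all alternatives run, thresholds of 1.5-fold and 3-fold included, with log2 ratios from 1.54 to 1.74. Of the 10 members, Itgav alone changed sign, to -0.57 with all measured probe sets averaged. The same averaging moved Gas6 to -0.18 and Tyro3 to -1.75. With the floor raised to the pooled 75th percentile, Tyro3 was at -0.38, a bound from its other probe set (112.6 untreated), which then had the higher mean. The count of members at least 2-fold lower, 1 as reported, was 0 with that floor, with a pseudocount of 16, with probe sets of shared sequence left out (which leaves none for Tyro3) and at 3-fold, and 2 at 1.5-fold. Among member probe sets, 2 were higher with a floor at the 25th percentile (1 as reported), and 0 were lower with the 75th percentile floor and without shared-sequence probe sets (3 as reported). In the 7 lists, 5 genes higher as reported became 3 with the 75th percentile floor, 21 at 1.5-fold and 2 at 3-fold. The 6 lower became 10 with a common 75th percentile, 10 with the 25th percentile floor, 2 with the 75th percentile floor, 14 at 1.5-fold and 0 at 3-fold. The cause of the change under the common 75th percentile was not tested. No paired analysis was possible because each group holds 1 array. Low signal limits Tyro3, Mertk and Cd36, whose brightest probe sets gave 39.3 to 102 untreated.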
